A study of Homo sapiens with 3 samples.

Results

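The 10 genes described here encode cell-surface proteins through which immune cells recognise, hold or are restrained by a target cell. They were chosen by name: 5 ligands of the natural killer cell receptor NKG2D (ULBP1, ULBP2, ULBP3, MICA and MICB), both PD-1 ligands (CD274, which encodes PD-L1, and PDCD1LG2, which encodes PD-L2), the leukocyte adhesion molecules ICAM1 and VCAM1, and the peptidase DPP4, also known as CD26. Every probe set annotated with exactly 1 of these symbols was taken, which gave 17 of the 54613 probe sets and all 10 genes of the 19775 named on the array. Their mRNA was read in IMR-90 ER:Ras cells, a line of human lung fibroblasts carrying an inducible Ras protein. Such a protein fuses Ras to an estrogen receptor domain that 4-hydroxytamoxifen (4-OHT) activates. The line is shared by all 3 cultures. Growing cells had no treatment. Cells in oncogene-induced senescence (OIS) had been kept 6 days in 100 nM 4-OHT. Cells in replicative senescence (RS) had been passaged repeatedly for 10 weeks, and the labels name no 4-OHT for them. A vehicle control, or growing cells kept in culture as long as either senescent culture, is not analysed here, so 4-OHT, the time in culture and senescence cannot be told apart here.

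Senescent cells stop dividing but remain alive, and immune cells can clear them. NKG2D on natural killer and T cells binds stress-induced ligands and promotes killing, whereas PD-L1 and PD-L2 bind PD-1 on T cells and damp their activity. ICAM1 and VCAM1 are the counter-receptors of leukocyte integrins, and DPP4 is a membrane enzyme that trims chemokines and other peptides and has been used as a surface marker of senescent fibroblasts.

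Each condition had 1 array, so conditions could not be tested against each other, and their number limits the precision of every value. Values are MAS5 signals on a linear scale. Signals at or below 45.5, the median over the 3 arrays, were set to that floor before ratios were taken, and a gene is called measured if any array exceeds the floor. That was true of 8 of the 10 genes and of 13466 genes in all. Repeat readings exist only within an array, where a gene has more than 1 probe set. Over 6759 genes with such a pair, the difference between the log2 ratios of the 2 brightest probe sets varied with an SD of 0.51 in the OIS to growing comparison, 0.47 in the RS to growing one and 0.52 between OIS and RS. This covers probe error and not differences between cultures. A ratio beyond it is therefore not a tested difference between conditions, and a ratio within it does not show that conditions are equal. Median signals were 46.2 (growing), 45.3 (OIS) and 44.9 (RS). The proliferation gene MKI67 was 5.69-fold lower in OIS and 4.21-fold lower in RS. HRAS, read by a probe set that need not detect the introduced fusion, was 1.53-fold higher in OIS and 3.01-fold lower in RS. All 12 fibroblast markers were measured, and their summed signal was 157860 to 175895 on the 3 arrays. Among them DCN and FBLN1 were 2.59-fold and 2.26-fold lower in OIS, and S100A4 was 3.21-fold higher in RS. Of 12 leukocyte markers with a probe set, 4 were above the floor on any array, their summed signal was 194.5 to 259, and PTPRC, the pan-leukocyte gene CD45, was at 0.6 (growing), 7.5 (OIS) and 0.3 (RS).

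Promoters from RefSeq (GRCh38.p14, 250 bases before to 50 after the start) were found for 9 of the 10 genes, all but PDCD1LG2. Those of ICAM1, VCAM1 and CD274 are shown because all 3 windows hold the letters of a kappaB core, the element read by NF-kappaB. Any part of these letters in the array values was not tested. The bases upstream of the start are given 5′ to 3′ on the gene's strand, with matches in capitals to the kappaB core (GGNNNTTCC), to the STAT element GAS (TTCNNNGAA) and to the core of the interferon-stimulated response element, ISRE (GAAANNGAAA), on either strand. The ICAM1 stretch lies at chr19:10270870-10271119, that of VCAM1 at chr1:100719492-100719741 and that of CD274 at chr9:5450292-5450541, all on the plus strand.
ICAM1: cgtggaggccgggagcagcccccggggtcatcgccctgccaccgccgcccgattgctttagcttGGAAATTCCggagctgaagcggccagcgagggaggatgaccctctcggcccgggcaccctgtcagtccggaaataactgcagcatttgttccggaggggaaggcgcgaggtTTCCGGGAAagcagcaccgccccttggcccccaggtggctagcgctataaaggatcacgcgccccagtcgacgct
VCAM1: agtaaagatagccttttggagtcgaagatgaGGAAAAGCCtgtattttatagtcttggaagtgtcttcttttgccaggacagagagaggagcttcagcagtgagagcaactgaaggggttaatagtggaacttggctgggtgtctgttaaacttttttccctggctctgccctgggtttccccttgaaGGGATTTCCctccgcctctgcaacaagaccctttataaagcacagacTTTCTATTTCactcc
CD274: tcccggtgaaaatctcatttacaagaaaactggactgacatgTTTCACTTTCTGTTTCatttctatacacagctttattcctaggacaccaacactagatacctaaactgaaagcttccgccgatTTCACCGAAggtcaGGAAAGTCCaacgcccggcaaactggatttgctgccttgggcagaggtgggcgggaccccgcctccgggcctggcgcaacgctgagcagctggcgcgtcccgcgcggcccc

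In ICAM1 the kappaB core stands 186 to 178 bases before the start and matches on both strands, and a GAS match stands 75 to 67 bases before it. VCAM1 has kappaB cores at 219 to 211 and at 62 to 54 bases before the start and an ISRE core at 15 to 6 bases. In CD274 a kappaB core lies 111 to 103 bases before the start and a GAS match 125 to 117 bases before it, with overlapping ISRE cores between 208 and 193 bases. No other member window held a kappaB core, so 3 of 9 did, against 20.1% of 35116 RefSeq promoter windows of 300 bases. GAS was in 2 of 9 (7.66% of all windows) and the ISRE core in 2 of 9 (3.57%). A loose AP-1 pattern that leaves the middle base free (TGANTCA) was matched in ULBP2 and ULBP3 (7.71% of all windows). In both the matched letters were TGATTCA, so a stricter AP-1 site is not shown. The GC box GGGCGG was in 8 of 9 (45%). Such matches are letters in a window and do not show that a factor binds.

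Counted by gene, OIS cells had 2 of the 8 measured genes at least 2-fold higher than growing cells, ICAM1 and CD274, and none at least 2-fold lower. As background, 4.92% of measured genes passed 2-fold upward and 6.63% downward. RS cells had 3 genes at least 2-fold higher, CD274, ULBP2 and PDCD1LG2, against 3.72% of all measured genes, and 1 lower, VCAM1, against 5.58%. Set directly against RS, OIS had ICAM1 and VCAM1 at least 2-fold higher and PDCD1LG2 and ULBP2 at least 2-fold lower, where 5.48% and 5.27% of all measured genes were. CD274 was the 1 gene past 2-fold in the same direction in both senescent cultures. Only its brighter probe set passed, and the dimmer one gave 1.98-fold in OIS and 1.90-fold in RS. The comparisons of OIS and RS with growing cells share the growing array, and in RNA of a whole culture more cells that make a gene and more mRNA per cell cannot be told apart. The median log2 ratio of the 8 genes was 0.34 in OIS and 0.64 in RS, and that of all measured genes was 0.00 in both.

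**Figure D1:**
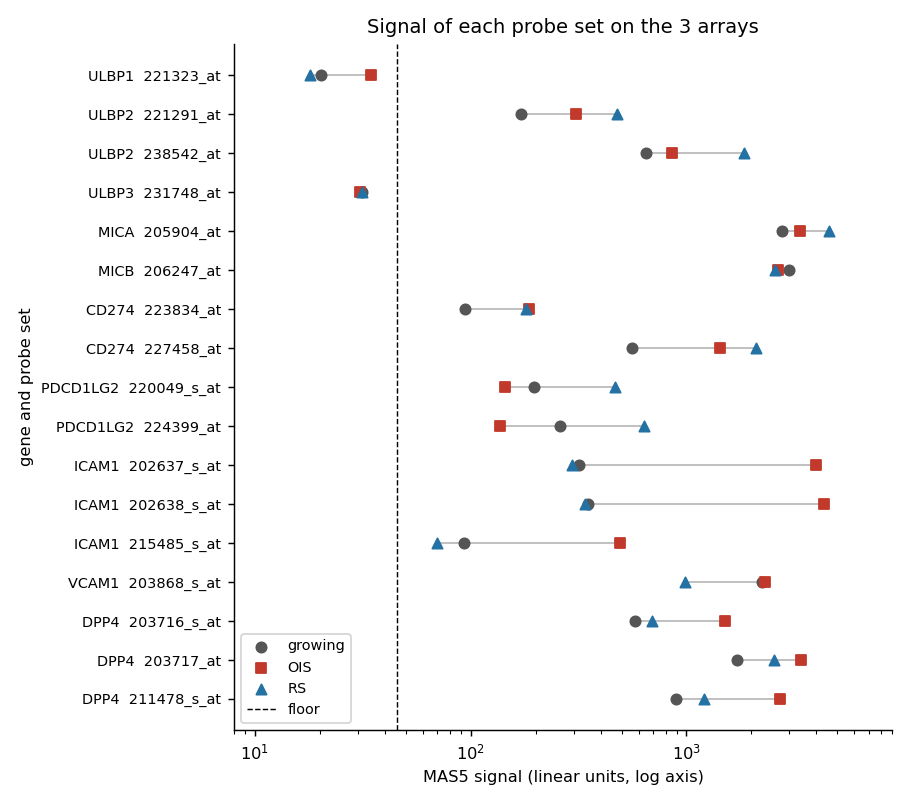
Signal of each of the 17 probe sets on the growing (circle), OIS (square) and RS (triangle) arrays, on a log axis in linear MAS5 units, with the floor of 45.5 as a dashed line; each point is 1 array and there are no error bars. All 3 ICAM1 probe sets stand apart on the OIS array, both ULBP2 probe sets are highest on the RS array, and ULBP1 and ULBP3 lie below the floor throughout.

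Of the 3 measured NKG2D ligands, ULBP2 was the one past 2-fold, and it was so in RS. ULBP2 is held to the membrane by a lipid anchor and is a ligand that stressed and senescent cells can display. Its brighter probe set read 649 (growing), 861 (OIS) and 1838 (RS). A second probe set read 172, 309 and 479 in the same order. Both gave the order growing, OIS, RS. For RS over growing cells they came to 2.83-fold and 2.79-fold higher, a log2 ratio of 1.50 and 1.48, and its ratio ranked 171 from the top among 13466 genes. In OIS the same probe sets gave log2 ratios of 0.41 and 0.85, the first of them within the probe error of 0.51 and neither past 2-fold. OIS was 2.13-fold lower than RS by the brighter probe set and 1.55-fold by the other.

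ULBP1 and ULBP3, close relatives of ULBP2 with the same receptor, were not above the floor on any array. The ULBP1 signal was 20.2 (growing), 34.6 (OIS) and 18.0 (RS). That of ULBP3 was 31.5, 30.6 and 31.3. Each rests on 1 probe set, and a signal under the floor sets only an upper bound, so no ratio is given for them. RAET1E, a further NKG2D ligand of the same cluster on chromosome 6, was below the floor as well, with signals of 14.3, 8.6 and 21.7, and RAET1G and RAET1L had no probe set naming them alone. In the RefSeq gene order ULBP1 directly follows ULBP2, so the gene past 2-fold in RS and a gene under the floor are chromosomal neighbours.

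MICA and MICB are transmembrane ligands related to HLA class I and lie next to each other in the HLA region of chromosome 6. MICA read 2773 (growing), 3369 (OIS) and 4552 (RS), 1.21-fold and 1.64-fold higher than growing cells. MICB read 2973, 2644 and 2572, which is 1.12-fold lower in OIS and 1.16-fold lower in RS. Neither passed 2-fold. The RS log2 ratio of MICA, 0.71, exceeded the probe error of 0.47, and the MICB ratio of -0.21 did not. HLA-B, the gene on the other side of MICA, was 1.48-fold higher in OIS and 1.10-fold higher in RS. Both MICA and MICB promoters hold a pair of heat shock half-sites (GAANNTTC), a feature of 6.77% of all promoter windows. The 80 bases around it are given, with the half-site pair in capitals, because these windows are alike. Any part of the windows in the MICA and MICB ratios was not tested. The windows lie at chr6:31403430-31403509 for MICA and chr6:31497976-31498055 for MICB, plus strand, and share 71 of 80 bases (88.8%).
MICA: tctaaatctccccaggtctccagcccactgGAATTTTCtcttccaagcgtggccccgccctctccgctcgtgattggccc
MICB: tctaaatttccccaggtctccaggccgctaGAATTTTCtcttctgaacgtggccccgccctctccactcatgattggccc

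The PD-1 ligands are neighbouring genes on chromosome 9 and differed from each other in OIS. CD274 was higher than growing cells in both senescent cultures. Its brighter probe set read 559 (growing), 1436 (OIS) and 2092 (RS), 2.57-fold and 3.74-fold higher. The dimmer one read 94.3, 187 and 179.6, 1.98-fold and 1.90-fold higher. Both placed growing cells lowest, but the order of OIS and RS was not settled, with log2 ratios of OIS over RS of -0.54 and 0.06. By the brighter probe set its ratio ranked 402 from the top in OIS and 81 in RS. The RS ratio of the dimmer probe set, 0.93 on the log2 scale, was 0.97 below that of the brighter, which is more than the probe error of 0.47.

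PDCD1LG2 was lowest in OIS and highest in RS by both of its probe sets. One read 259 (growing), 137 (OIS) and 634 (RS). The other read 196, 145 and 467. OIS was thus 1.89-fold and 1.35-fold lower than growing cells, short of 2-fold, whereas RS was 2.45-fold and 2.38-fold higher. The second of these OIS values, a log2 ratio of -0.44, was within the probe error of 0.51. OIS over RS had a log2 ratio of -2.21 and -1.69, or 4.62-fold and 3.23-fold lower, and the brighter probe set ranked 104 from the bottom among 13466 genes. The genes flanking this pair differed little: PLGRKT, beside CD274, was 1.03-fold lower in OIS, and RIC1, beside PDCD1LG2, was 1.27-fold higher in OIS and 1.30-fold higher in RS. Of 7 genes known to stabilise or degrade the PD-L1 protein, none passed 2-fold in either senescent culture. Over all measured genes 4.92% were higher and 6.63% lower by that much in OIS, and 3.72% and 5.58% in RS. With 7 genes, a count of none is near those shares. CMTM6, which protects PD-L1 from lysosomal breakdown, was 1.39-fold higher in OIS and 1.37-fold in RS.

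ICAM1, which binds the integrin LFA-1 on leukocytes, had the largest ratio of the 10 genes. Its brightest probe set read 349 (growing), 4335 (OIS) and 337 (RS). The second read 319, 3988 and 294, and the third 92.9, 494 and 70.0. OIS stood above both other cultures by every probe set, 12.4-fold, 12.5-fold and 5.32-fold higher than growing cells, and the brightest ranked 46 from the top among 13466 genes. Growing cells and RS were not told apart, with log2 ratios of -0.05, -0.12 and -0.41, all within the probe error of 0.47. All 3 probe sets carry the _s_at ending, which marks probe sets that can read several transcripts, although the annotation names ICAM1 alone. ICAM4 and ICAM5, which follow ICAM1 on chromosome 19, were 1.91-fold and 2.79-fold higher in OIS at low signals of 149 and 167.

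VCAM1, which binds the integrin VLA-4, gave a different pattern. Its only probe set read 2230 (growing), 2316 (OIS) and 983 (RS). OIS was 1.04-fold higher than growing cells, a log2 ratio of 0.05 within the probe error of 0.51. RS was 2.27-fold lower than growing cells and OIS was 2.36-fold higher than RS. Thus ICAM1, high in OIS, was not told apart from growing cells in RS, and VCAM1, low in RS, was not told apart from them in OIS. ICAM1 and VCAM1 are also made by endothelial cells. Of 8 endothelial markers 4 were measured, and 3 of these passed 2-fold upward in OIS, where the background share was 4.92%. They were PECAM1, VWF and ROBO4, at 2.76-fold, 2.19-fold and 5.47-fold higher, with OIS signals of 135, 131 and 576. The median OIS log2 ratio of this list, 1.30, depended on the processing. It was 0.58 with the floor at the 60th percentile and 0.40 with the median of all probe sets. Without a filter on low values it was 0.01, and other settings gave 1.08 to 1.37. CDH5, the endothelial cadherin, was at 1.5 (growing), 2.9 (OIS) and 4.9 (RS), and KDR, ESAM and CLDN5 were below the floor on all 3. The summed signal of the 8 markers was 1497 (growing), 2162 (OIS) and 2255 (RS), most of it from TEK. The part of these genes in the ICAM1 and VCAM1 ratios was not tested.

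DPP4 was higher in OIS by all 3 of its probe sets, and whether it passed 2-fold depended on which was read. The brightest gave 1716 (growing), 3400.5 (OIS) and 2546 (RS). Of the others, one gave 899, 2714 and 1208, and one 574.5, 1509.7 and 692. All placed growing cells lowest and OIS highest. OIS was 1.98-fold, 3.02-fold and 2.63-fold higher than growing cells in that order, so the brightest probe set was just short of 2-fold. Both others carry the _s_at ending, and the brightest does not. RS was 1.48-fold, 1.34-fold and 1.20-fold higher, with log2 ratios of 0.57, 0.43 and 0.27, the first of which exceeded the probe error of 0.47. Set against RS, OIS was 1.34-fold, 2.25-fold and 2.18-fold higher in the same order of probe sets, so here too only the brightest was short of 2-fold. Shares of all measured genes at least 2-fold higher and lower were 4.92% and 6.63% in OIS, and 3.72% and 5.58% in RS. Of 9 measured relatives and partners of DPP4 none reached 2-fold in OIS or RS, which is near those shares. FAP, its closest homologue and a fibroblast surface protease, was 1.28-fold higher in OIS and 1.53-fold lower in RS, and ADA, the deaminase that docks on DPP4, was 1.71-fold and 1.37-fold higher.

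Read by probe set in place of gene, 6 of the 15 member probe sets above the floor passed 2-fold upward from growing cells to OIS, 3 of ICAM1, 2 of DPP4 and 1 of CD274, and none was lower by that much. Of all probe sets naming 1 gene and above the floor on at least 1 array, 4.38% were higher and 6.43% lower. In RS 5 were at least 2-fold higher (3.26% of all) and 1 lower (5.01%). Between OIS and RS, 6 were at least 2-fold higher in OIS (4.96%), 3 of ICAM1, 2 of DPP4 and 1 of VCAM1, and 3 lower (5.2%), 2 of PDCD1LG2 and 1 of ULBP2. Probe sets of 1 gene share their target and are not replicates.

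**Figure D2:**
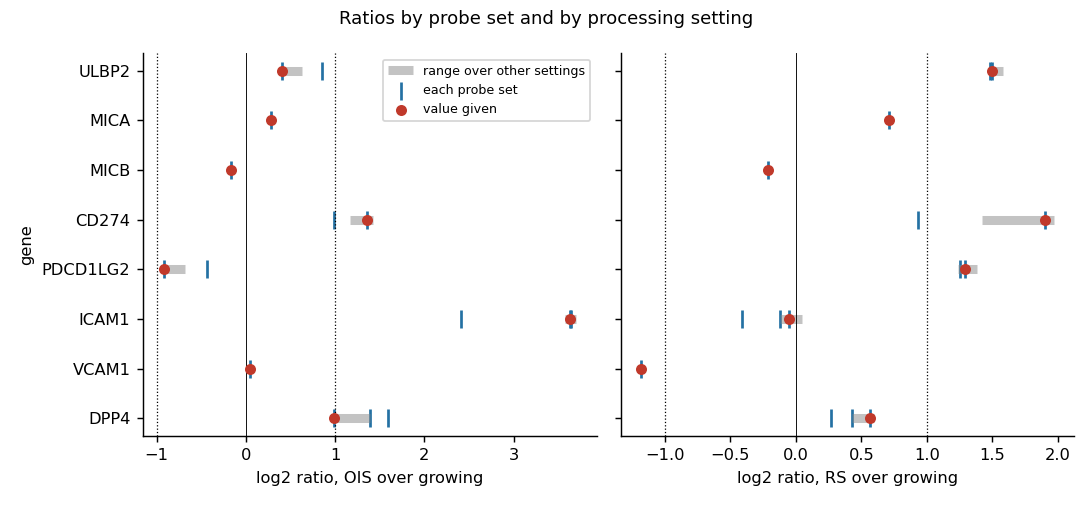
Log2 ratio of the 8 measured surface ligand genes for OIS (left) and RS (right) over growing cells, with the value given as a red point, each probe set as a blue tick and the range over the other processing settings as a grey bar; dotted lines mark 2-fold. The widest spread between probe sets is that of ICAM1 in OIS, from 2.41 to 3.64, and for DPP4 in OIS the ticks lie on both sides of 2-fold, from 0.99 to 1.59.

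**Figure D3:**
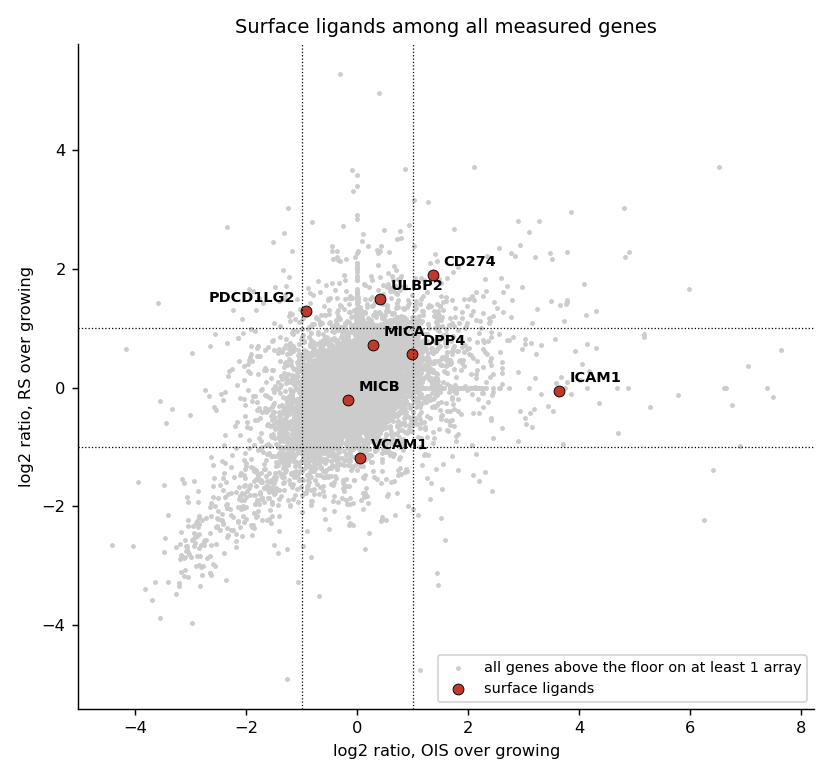
Log2 ratio of OIS over growing cells (horizontal) against RS over growing cells (vertical) for the 13466 measured genes in grey and the 8 measured surface ligand genes in red, with dotted lines at 2-fold; both axes share the growing array. ICAM1 lies far to the right at 3.63 and -0.05, CD274, by its brighter probe set, is beyond 2-fold on both axes, and PDCD1LG2 lies at -0.92 and 1.29.

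Genes with the most similar pair of ratios were found for the 5 members past 2-fold over growing cells, by Euclidean distance in the 2 log2 ratios among 13465 other genes. With 3 arrays such a pattern holds only 2 numbers and many genes come close. For ICAM1 they were CST1, NDP and GDF15, the last a stress-responsive secreted factor that read 1643 (growing), 22452.5 (OIS) and 1748.5 (RS). CST1 and NDP were below the floor in growing cells, so their ratios are bounds, apart from RS over growing cells for CST1. CST1 was at 10.7 (growing) and 44.7 (RS), both below the floor, so that ratio is not determined. TRPC4, SLC39A8, GPR65 and MYL10 were each below the floor on at least 1 array, so their ratios that use such an array are bounds. The genes nearest to PDCD1LG2 were TRPC4, PSG4 and SH3RF1, all between 0.067 and 0.132 log2 units away. PSG4, a pregnancy-specific glycoprotein, read 1671, 813 and 4183. For CD274 the genes were SLC46A3, BCL9L and IFNE, an interferon gene whose growing signal of 45.8 was at the edge of the floor. ULBP2 was nearest to SLC39A8, ERVK13-1 and GPR65, and VCAM1 to MYL10, ANKRD36 and TRIM47.

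Other ligands that natural killer and T cells read were mostly short of 2-fold. Of 27 genes 23 were measured, and 2 of these passed 2-fold upward in OIS and none downward, around a median log2 ratio of 0.34. Over all measured genes these shares were 4.92% and 6.63%. TNFSF18, the ligand of the T cell receptor GITR, read 92.3 (growing), 852 (OIS) and 103 (RS), 9.23-fold higher in OIS. TNFSF10, the death ligand TRAIL, read 31.2, 145 and 22.1, at least 3.19-fold higher in OIS since growing cells were below the floor. In RS 1 of the 23 was past 2-fold, TNFSF9, the ligand of 4-1BB, at 2.05-fold higher, beside 3.72% of all measured genes, and the median was 0.00. CD276, a B7 family relative of the PD-1 ligands, was 1.91-fold higher in OIS, and HLA-E, which inhibits natural killer cells through NKG2A and was read by a probe set that can also bind related HLA genes, was 1.45-fold higher in OIS and 1.26-fold in RS. The DNAM-1 ligand PVR was 1.24-fold lower in OIS and 1.43-fold higher in RS.

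Of 15 measured adhesion genes other than ICAM1 and VCAM1, 3 passed 2-fold upward in OIS and none downward, and in RS 2 passed it upward and 1 downward. The shares over all measured genes were 4.92% upward and 6.63% downward in OIS, and 3.72% and 5.58% in RS. L1CAM, a neural adhesion molecule, read 33.6 (growing), 188 (OIS) and 202 (RS), at least 4.13-fold and 4.44-fold higher. PODXL, a sialomucin, was 2.04-fold higher in OIS and 8.95-fold higher in RS. JAM2, a junctional molecule that leukocyte integrins bind, read 405, 444 and 61.9 and was 6.55-fold lower in RS, so as for VCAM1 it was past 2-fold lower in RS and within 2-fold of growing cells in OIS. SELE, the endothelial selectin, was below the floor throughout.

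Surface NKG2D ligands and adhesion molecules are shed by membrane proteases. Of 8 measured genes listed under shedding and its inhibition, 1 was past 2-fold upward in OIS (4.92% of all measured genes) and 1 in RS (3.72%). The list includes PLCD1, a phospholipase gene that is not a sheddase, which was short of 2-fold in both cultures. MMP14 was 2.60-fold higher in OIS, at 2044 (growing), 5316 (OIS) and 2179.6 (RS). TIMP3, an inhibitor of these proteases, was 2.62-fold higher in RS, at 4769, 3849 and 12505. The sheddases ADAM10 and ADAM17 were 1.03-fold lower and 1.28-fold higher in OIS and 1.08-fold lower and 1.02-fold higher in RS.

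Of 21 measured transcription factors and kinases known to act on these genes, 2 were at least 2-fold higher and 1 lower in OIS, beside 4.92% and 6.63% of all measured genes. IRF1, an interferon-responsive factor, read 540 (growing), 1816 (OIS) and 517 (RS), 3.37-fold higher in OIS. NFKB1, an NF-kappaB subunit gene, read 553, 1279 and 490.3, 2.31-fold higher in OIS. FOSL1 of the AP-1 family was 2.18-fold lower in OIS. In RS none was at least 2-fold higher (3.72% of all) and 1 was lower (5.58%), IRF2 at 2.14-fold. Set directly against RS, OIS had 5 of the 21 at least 2-fold higher, including REL at 2.79-fold and RELB at 2.18-fold, and 1 lower, FOSL1 at 2.23-fold, beside 5.48% and 5.27% of all measured genes. RELA was 1.17-fold higher in both cultures, and JAK2 was 1.03-fold lower in OIS and 1.05-fold lower in RS.

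**Figure D4:**
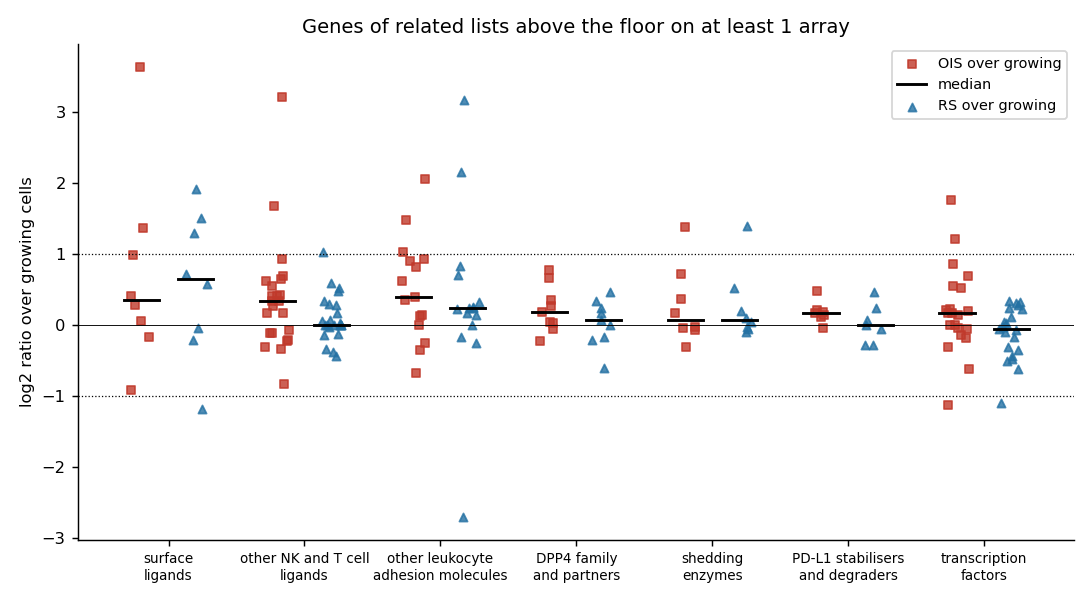
Log2 ratio over growing cells of each measured gene in the surface ligand set and 6 related lists, OIS as squares and RS as triangles, with a bar at each median and dotted lines at 2-fold; each point is 1 gene read on 1 array per condition. The medians of the related lists lie between -0.06 and 0.39, and ICAM1 at 3.63 and TNFSF18 at 3.21 are the highest OIS points.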

How the data were processed

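The authors made the deposited intensity values, on a linear scale and 1 for each probe set, with MAS5, per the submitters' processing notes. No source used here gives its version or settings. The program scales each array by 1 factor (2% trimmed means 497.3, 497.2 and 497.2), so a shift of all genes at once would not show. Genes were named from the platform annotation: 41091 probe sets named 1 gene, 1801 several and 11721 none, and 41037 of the first had an identifier in the RefSeq table. Each gene was represented by its brightest probe set (mean log2 over the arrays). Log2 ratios were taken after raising values to the floor of 45.5. With 1 array per condition no test was made. Differences of at least 2-fold among the members were counted beside the share over all measured genes. The same was done for the ligand, adhesion, shedding, transcription factor, PD-L1 protein, DPP4 partner, receptor, endothelial and epithelial lists.

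The members, the lists and the rules for naming genes (every member, list genes past 2-fold, and the 3 nearest patterns) were chosen with earlier results of these data known. Further genes of the lists were named for their known role, and the kappaB core and the promoters shown were settled after first matches and values were seen. The steps were tested on simulated data, with changes placed only in genes well above the floor on all arrays, so dimmer genes were not covered. Python 3.11.15, numpy 2.4.6, pandas 2.3.3 and matplotlib 3.10.9 were used.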

Additional observations from a re-analysis of the deposited data

Results flagged for a closer look

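PDCD1LG2 lay on opposite sides of growing cells in the senescent cultures, with a log2 ratio of -0.92 in OIS and 1.29 in RS. Its second probe set gave -0.44 in OIS, within the probe error of 0.51, and 1.25 in RS. With 1 array per condition, and the same growing array in both ratios, the difference was not tested.

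A probe set that names MICA and MICB together, and was therefore left out of the gene values, had a higher signal in both senescent cultures than in growing cells. It read 1229 (growing), 1462 (OIS) and 2053 (RS), 1.19-fold and 1.67-fold higher. The probe set of MICA alone gave 1.21-fold and 1.64-fold.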

How the results depend on the processing

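No paired analysis was possible because each condition had 1 array, and for the same reason no replicate could be left out. The counts of members past 2-fold (2 in OIS and 4 in RS against growing cells, and 4 between OIS and RS) came out the same after quantile normalization, centring, a floor at the 25th or 60th percentile, a pseudocount of 16 in place of the floor, and no filter on low values. With the median of all probe sets they were 3, 4 and 4, since DPP4 then passed 2-fold in OIS at a log2 ratio of 1.39. Without probe sets ending in _s_at or _x_at they were 1, 3 and 2, because ICAM1 and VCAM1 then have no probe set. At 3-fold they were 1, 1 and 2. By that cut 2.16% of all measured genes were higher and 2.53% lower in OIS, and 1.09% and 2.35% in RS. Between OIS and RS 2.26% were higher in OIS and 1.87% lower. The 2-fold shares over all measured genes also changed with the setting. With the floor at the 25th percentile they were 8.5% higher and 9.37% lower in OIS, and 7.26% and 8.9% in RS. The same count of members thus does not stand equally far from the share under every setting. Of 186 values of single members under these settings, 184 moved by less than the probe error, none changed sign from a 2-fold call, and the other 2 came from the median of all probe sets: CD274 in RS at 1.42 and DPP4 in OIS over RS at 1.13. ULBP2 in OIS over RS was at -0.86 under that setting, short of 2-fold. Signals near the floor limit ULBP1 and ULBP3.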

Other observations

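Receptors for these ligands were read too. Of 7 such genes with a probe set, 5 were above the floor on any array and none passed 2-fold over growing cells. With 5 genes this is near the shares over all measured genes. Those were 4.92% higher and 6.63% lower in OIS, and 3.72% and 5.58% in RS. ITGA4, a subunit of the VCAM1 receptor that fibroblasts also make, read 1080.0 (growing), 559.5 (OIS) and 762 (RS), 1.93-fold and 1.42-fold lower. ITGB2, the leukocyte subunit of the ICAM1 receptor, was below the floor on all arrays at 18.5, 41.8 and 9.2. The DNA damage kinases are known to raise NKG2D ligands in other settings. Here CHEK1 mRNA was 1.85-fold lower in OIS and 2.16-fold lower in RS, while ATM was 1.42-fold higher and 1.21-fold lower. ATR was 1.06-fold and 1.03-fold lower, and CHEK2 1.31-fold and 1.66-fold lower. Of all measured genes 5.58% were at least 2-fold lower in RS. Arrays do not read kinase activity, and the part of these kinases in the ligand values was not tested.

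EXTL2, the gene after VCAM1 on chromosome 1, read 2074 (growing), 4051 (OIS) and 2199 (RS), 1.95-fold higher in OIS where VCAM1 was at 1.04-fold. Among 7 measured epithelial markers KRT8 and KRT18 were 2.20-fold and 2.01-fold higher in RS, where the background share past 2-fold upward was 3.72%. EPCAM was 3.20-fold lower in OIS, where the background share past 2-fold downward was 6.63%. CDH1 was below the floor on all arrays.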
